A study of Drosophila melanogaster with 72 samples.

Results

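Messenger RNA of skeletal muscle was compared between O1 flies and B3 flies at 1 week of age. B3 is the parental strain of Drosophila melanogaster, and O1 is a strain derived from it that ages late. The comparison takes every library that the labels place in O1 or B3 at 1 week, 3 of each, which is 6 of the 72 libraries of the series. The labels name no transgene and no treatment for either strain, and the 2 groups differ in strain alone as far as the labels go. The labels give neither sex, hour of collection, nor the number of flies behind a library. They do not say that replicates came from separate animals, so the p-values rest on a spread among libraries that may be technical. The strain difference was also read in libraries that the comparison does not use. These are 3 O1 and 3 B3 libraries at 6 weeks and 10 O1 and 10 B3 libraries of a day course (zeitgeber times ZT0, ZT6, ZT12 and ZT18, the hours of the lighting schedule; age not given). The 3 libraries of a further late-ageing strain, O3, at 1 week are given for single genes. The series addresses muscle expression in strains that age at different rates, and the role of the clock in muscle.

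The fly clock is a feedback loop in which CLOCK and CYCLE switch on period and timeless, whose protein products then repress them. Flight muscle is rich in mitochondria and runs mainly on aerobic metabolism. Muscle, like the fat body, can also express antimicrobial peptides, secreted defence molecules switched on by the Toll and Imd pathways, and their level rises with age in many fly tissues.

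The 6 libraries held 17.2 to 19.5 M counts in O1 and 15.5 to 23.7 M in B3. Muscle markers were present in all of them: the summed level of 10 skeletal muscle genes was 27984 ± 1043 CPM (counts per M counts of the library) in O1 and 32471 ± 1419 CPM in B3 (SD, n = 3 each), with 0 of the 10 genes at 0. Library 1 of O1 stood apart. It differed from O1 libraries 2 and 3 with chi-square values of 104 and 84.2 per degree of freedom, against 14 between those 2 libraries and 12.8 to 19.8 within B3. It lay at least 2-fold below both of its replicates in 1589 of 12445 genes, and no other library did so in more than 71. On the upper side it did not stand out. It was at least 2-fold above both replicates in 131 genes, against 186 for O1 library 2 and 254 for B3 library 1. Testis markers summed to 13.8, 248 and 263 CPM in O1 libraries 1, 2 and 3, and to 71.3, 31.5 and 16.5 CPM in B3. Of 21 testis genes, 8 were at 0 in O1 library 1. Gut markers summed to 18770, 14005 and 15064 CPM in O1 and to 8219, 11825 and 9677 CPM in B3, where 6 of 30 genes tested were called higher and 1 lower in O1. Many results in which O1 library 1 stood out are therefore given with and without it. The part of these tissues in any result was not tested except where a value is given. In bulk tissue, fewer cells of a type and less RNA per cell cannot be told apart.

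Of 12445 genes tested with edgeR's quasi-likelihood test, 2956 (23.8%) were called at an adjusted p under 0.05. In O1, 1276 genes (10.3%) were higher and 1680 (13.5%) lower, and the change was at least 2-fold in 263 and 260 of them. These shares are the background for each list count below, and a count near them is no result about its list. The CPM of the O1 and B3 libraries did not overlap in 4343 genes (34.9%). The median difference over all genes tested, given throughout on the log2 scale as O1 minus B3, was 0.04. Without O1 library 1, 3117 genes were called, 36.9% of them higher, and without O1 libraries 2 and 3 together 2445 were called, 53.9% of them higher. The first of these sets held 942 of the 1276 higher and 1489 of the 1680 lower genes, and the second 859 and 786. A fit of these 6 libraries alone called 1887 genes, 816 higher and 1071 lower.

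The core clock genes differed in both directions: timeless and period were higher in O1, with vri and Pdp1, and the activator genes Clock (Clk) and cycle (cyc) were lower. Of 8 core clock genes, 4 were called higher and 2 lower, beside 10.3% and 13.5% of all genes tested. timeless (tim), the repressor that light degrades through cryptochrome, had 784, 683 and 621 CPM in O1, against 294, 227 and 180 CPM in B3. Every O1 library was above every B3 library, and the log2 difference was 1.57 ± 0.186 (SE; adjusted p = 3.93e-05). period (per), its partner, had 73.0, 67.1 and 64.8 CPM in O1, against 36.9, 33.1 and 29.4 CPM in B3, a difference of 1.04 ± 0.133 (adjusted p = 6.96e-05). Both strains kept tight libraries for per, and the groups did not overlap.

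Clk had 18.2, 14.8 and 19.0 CPM in O1, against 26.6, 38.5 and 33.1 CPM in B3 (difference -0.92 ± 0.207, adjusted p = 0.00534), with no overlap. The call was lost with O1 library 1 alone (-0.84, adjusted p = 0.0856). cyc had 27.4, 22.9 and 24.1 CPM in the O1 libraries and 27.8, 32.8 and 31.5 CPM in B3. Its difference of -0.31 (adjusted p = 0.00862) came with O1 library 1 just under the lowest B3 library, and was -0.17 with O1 library 1 alone. The cyc call was lost in the fit of these 6 libraries alone (-0.31, adjusted p = 0.0638). Of the genes of the second loop, Pdp1, an activator of Clk, averaged 731 CPM in O1 and 543 CPM in B3 (difference 0.43, adjusted p = 0.000296). vri, a repressor of Clk, had 560, 351 and 384 CPM in O1, against 319, 318 and 287 CPM in B3 (0.49, adjusted p = 0.023). That call rests on O1 library 1: without it the difference was 0.25 (adjusted p = 0.0849). It was also lost without B3 library 2 (adjusted p = 0.0515) or 3 (0.102), and in the fit of these 6 libraries alone (0.48, adjusted p = 0.108). The transcriptional repressor gene cwo (0.18, adjusted p = 0.109) and the light receptor gene cry (-0.17, adjusted p = 0.185) were not called, although cry was called lower without O1 library 1 (-0.27, adjusted p = 0.0282).

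**Figure D1:**
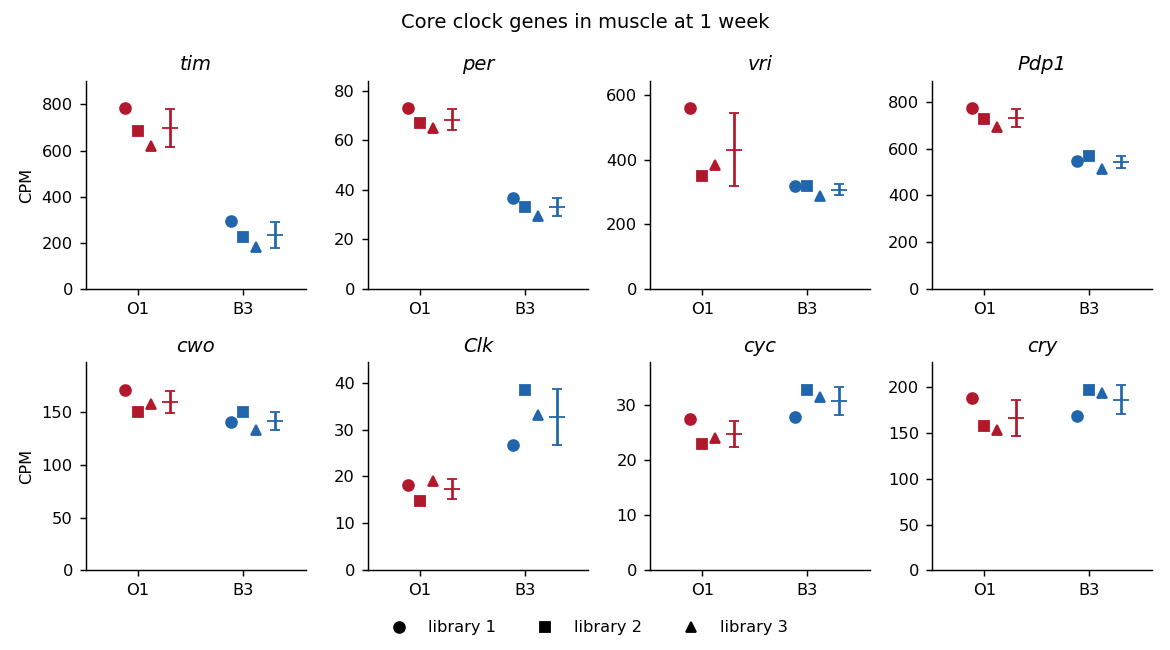
Level (CPM, axis from 0) of the 8 core clock genes in each of the 3 O1 (red) and 3 B3 (blue) libraries at 1 week, with the mean and SD beside the points. In tim and per all O1 libraries lie above all B3 libraries, in Clk and cyc all lie below, and in cry the strains overlap.

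The labels give no hour of collection for the 1-week libraries, and clock transcripts move several-fold within a day, so the strain difference and a difference in hour cannot be told apart from these libraries. The day-course libraries give the size of that movement. tim averaged 229 ± 1.67, 126 ± 9.82 and 897 ± 30.3 CPM in O1 at ZT0, ZT6 and ZT12 (SD, n = 3 each) and 1103 CPM in the 1 library at ZT18. In B3 the same times gave 320 ± 17.6, 115 ± 11.4, 654 ± 19.7 and 955 ± 57.0 CPM (n = 3, 2, 3 and 2). O1 was thus above B3 at ZT12 and ZT18 and below it at ZT0. Averaged over the 4 times, tim differed by 0.08 (adjusted p = 0.103) and per by 0.23 (adjusted p = 0.00021). Clk averaged 31.9, 31.1, 14.5 and 11.5 CPM in O1, against 36.8, 36.1, 19.8 and 11.6 CPM in B3 from ZT0 to ZT18, a difference of -0.22 that was called. Over the day 4 of the 8 core genes were called lower (Clk, cyc, cwo and cry) and 1 higher (per), where 56.1% of all genes tested were called in either direction. At 6 weeks tim was again higher in O1, with 798, 701 and 716 CPM against 388, 300 and 259 CPM in B3 (1.22), and so was per (0.76), while Clk was lower (-0.54). In O3 at 1 week, tim had 475, 390 and 571 CPM and Clk 21.3, 27.7 and 18.0 CPM.

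**Figure D2:**
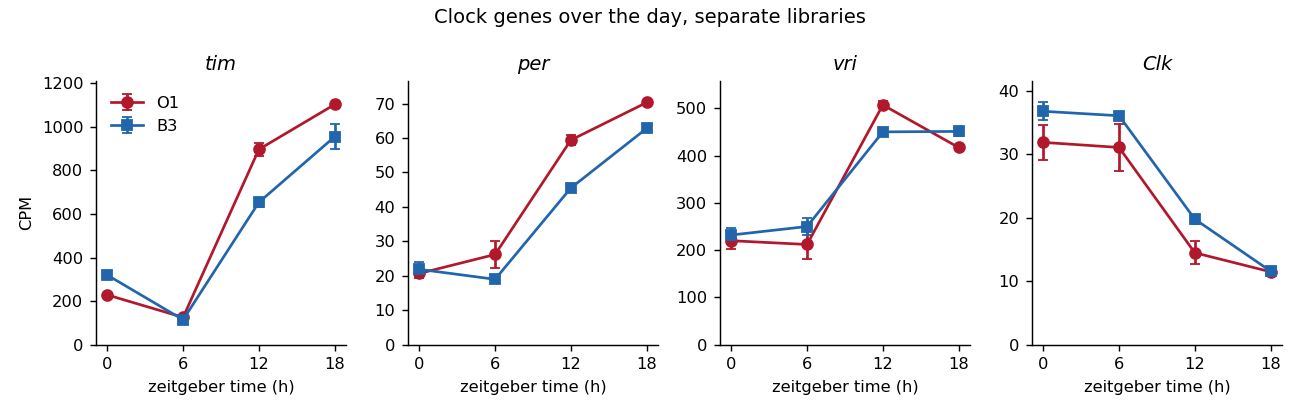
Mean level (CPM, axis from 0; bars are SD) of tim, per, vri and Clk against zeitgeber time in hours in the day-course libraries of O1 (red) and B3 (blue), which share no library with the 1-week comparison. O1 at ZT18 is a single library and has no bar. tim is lowest at ZT6 and highest at ZT18 in both strains, and Clk is lower at ZT12 and ZT18 than at ZT0 and ZT6.

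Of 14 genes for kinases, phosphatases and ubiquitin ligases that act on clock proteins, 0 were called higher and 6 lower. These counts stand beside 10.3% and 13.5% of all genes tested, and the list's median was -0.06. ctrip, a ubiquitin ligase gene whose product controls CLOCK levels, had 225, 231 and 234 CPM in O1, against 421, 444 and 413 CPM in B3. This gap was far wider than the spread within either strain (-0.89 ± 0.0968, adjusted p = 1.97e-05), and the gene was also lower over the day (-1.22) and at 6 weeks (-0.87). The kinase genes tefu (-0.35), CkIalpha (-0.22) and dco (-0.21), the last being doubletime, fell by smaller amounts, and CkIIbeta (-0.16) and mts (-0.17) complete the 6. The count was 3 in the fit of these 6 libraries alone and in the fit without a filter on low counts.

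Transcripts of the respiratory chain were higher in O1. Of 65 nuclear genes of the respiratory chain, 63 were called higher and 0 lower. The list's median of 0.43 stood beside 0.04 over all genes, and all 65 differences were positive. By complex, 30 of 31 genes of complex I were higher (median 0.47), 4 of 4 of complex II (0.51), 8 of 8 of complex III (0.40), 8 of 9 of complex IV (0.54) and 12 of 12 of ATP synthase (0.38), with cytochrome c (Cyt-c-p) at 0.69. The 2 not called were CG6463 of complex I (0.13) and CG9603 of complex IV (0.20), and both were above B3 on average. The summed level of the list was 58921, 65638 and 62305 CPM in the O1 libraries and 46029, 44830 and 46333 CPM in B3, so that no O1 library fell within the B3 range.

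The widest difference was in CG15434, which encodes the complex I subunit that RefSeq names ND-B8. It had 147, 195 and 170 CPM in O1, against 47.3, 59.4 and 54.5 CPM in B3 (1.67 ± 0.109, adjusted p = 3.77e-07), and its difference was 3.65 over the day and 5.53 at 6 weeks. Oscp, a subunit of the stalk of ATP synthase, had 1149, 1387 and 1269 CPM in O1, against 774, 742 and 777 CPM in B3 (0.73 ± 0.0647, adjusted p = 4.37e-06). The complex I genes CG3214 (ND-B17.2, 0.77) and CG12859 (ND-B15, 0.71) were also without overlap. All 65 genes were called higher over the day (median 0.72) and at 6 weeks (median 0.77), against 56.1% and 44.4% of all genes called in either direction. The count at 1 week was 62 without O1 library 1 and 47 with that library alone. Markers of the indirect flight muscle, the fibres with the most mitochondria, summed to 9986, 14011 and 11992 CPM in O1 and to 10222, 9539 and 9693 CPM in B3. O1 libraries 2 and 3 were above all B3 libraries in this sum and O1 library 1 was within the B3 range. Most of the sum is Mf, of a myofilament protein, which was called higher (0.49, adjusted p = 0.00318). The other markers did not follow it as a set. TpnC4 was lower, averaging 898 CPM in O1 and 1777 CPM in B3. Act88F, at 533 and 596 CPM, was not called (-0.16), and fln, at 530 and 323 CPM, was higher. The part of flight muscle content in the respiratory chain difference was not tested.

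Of 14 citrate cycle genes, 7 were called higher and 0 lower (median 0.20). Aconitase (Acon) had 7264, 7405 and 6386 CPM in the O1 libraries and 4471, 4648 and 4525 CPM in B3 (0.63 ± 0.0745, adjusted p = 4.03e-05). The strains were well apart in all libraries. The succinate dehydrogenase genes SdhB (0.69) and SdhA (0.43), which the cycle shares with complex II, and the isocitrate dehydrogenase subunit gene CG5028 (0.52, Idh3g in RefSeq) rose too. Over the day 13 of the 14 were called higher and at 6 weeks 14.

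Among 21 genes of glycolysis and glycogen, 10 were higher and 1 was lower (median 0.16), and the enzymes did not move together. Enolase (Eno) had 2959, 3223 and 3164 CPM in O1, against 1771, 1832 and 1758 CPM in B3 (0.80 ± 0.0615, adjusted p = 1.37e-06). Aldolase (Ald) went the other way, with 9390, 10043 and 9100 CPM in O1, against 13546, 13989 and 13970 CPM in B3 (-0.54 ± 0.0697, adjusted p = 7.7e-05). Neither gene overlapped between strains. Phosphofructokinase (Pfk, 0.51) and pyruvate kinase (PyK, 0.43), the enzymes of regulated steps, were higher. Aldolase was lower over the day as well (-0.45) but higher at 6 weeks (0.42). Of 18 genes of lipid storage and oxidation, 1 was higher and 2 were lower (median -0.07), beside 10.3% and 13.5% of all genes tested. They were the fatty acid desaturase desat1 (0.56), the triglyceride synthase gene mdy (-0.36) and the thiolase gene yip2 (-0.37).

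**Figure D3:**
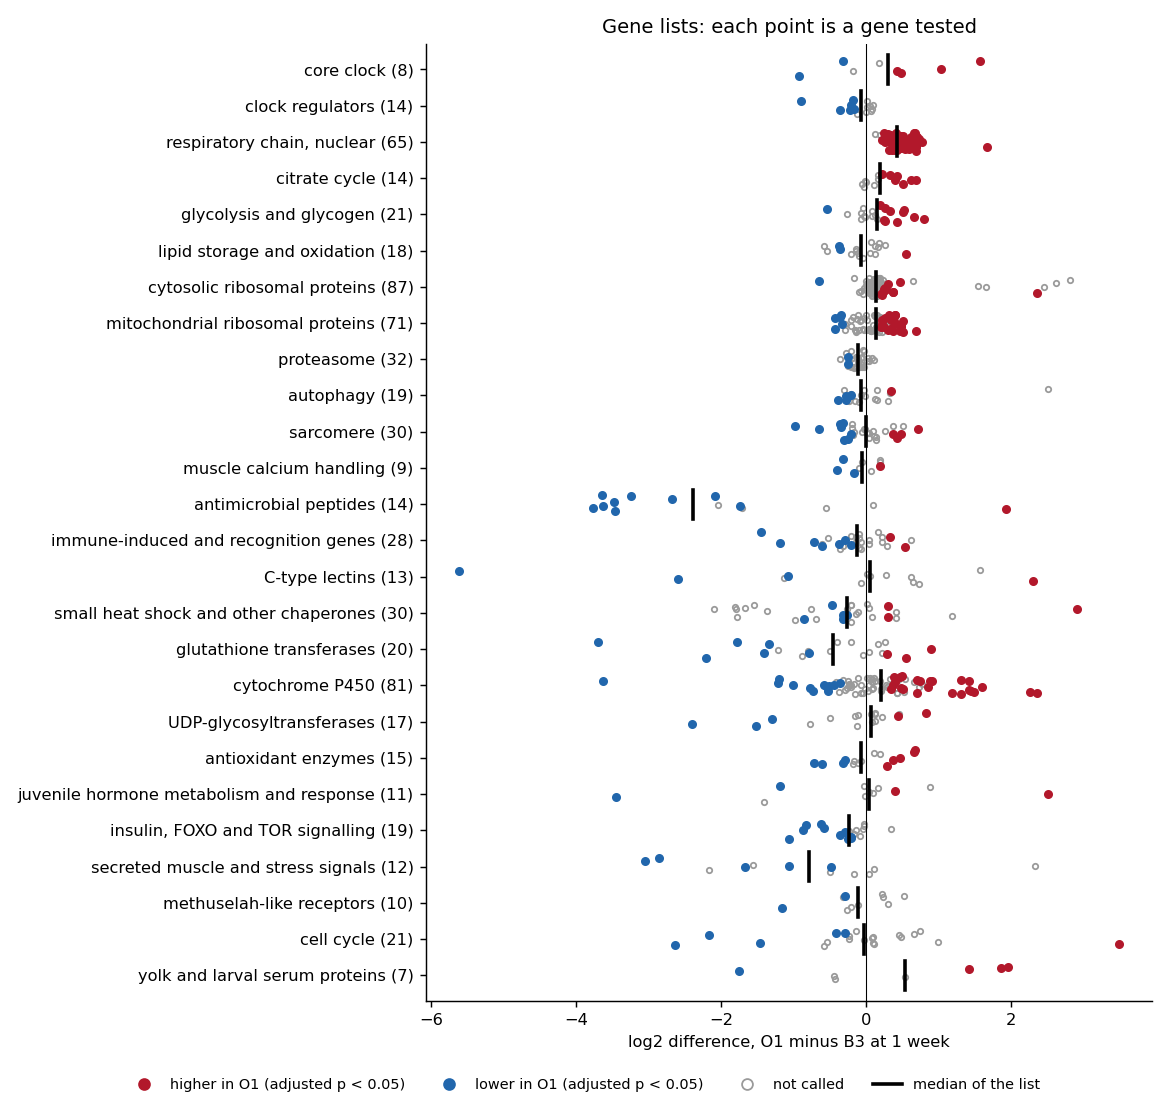
Log2 difference, O1 minus B3 at 1 week, of each gene tested in 26 gene lists (number of genes shown in parentheses), with called genes in red (higher in O1) and blue (lower) and the list median as a black bar. Respiratory chain genes lie to the right of 0 as a block, and antimicrobial peptide genes lie mainly left of -1. mthl12, at the floor of counts in B3, is left out.

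Contractile genes were mixed. Of 30 sarcomere genes, 4 were higher and 8 lower, beside 10.3% and 13.5% of all genes tested, with a median of 0.00. TpnC4, the troponin C isoform of flight muscle that sets stretch activation, had 813, 910 and 971 CPM in the O1 libraries and 1716, 1734 and 1882 CPM in B3 (-0.98 ± 0.10, adjusted p = 1.1e-05). bt, which encodes the giant protein projectin, had 3205, 4458 and 4508 CPM in O1, against 6632, 6246 and 6191 CPM in B3 (-0.65). Flightin (fln), a thick filament protein of flight muscle, went up, at 463, 554 and 573 CPM in O1, against 386, 269 and 313 CPM in B3 (0.72 ± 0.135, adjusted p = 0.00152). All 3 genes were without overlap, and fln was not called with O1 library 1 alone (0.52, adjusted p = 0.0682). tmod, which caps actin filaments, was lower (-0.31). At 6 weeks 2 of the 30 were called higher and 22 lower. Of 9 calcium handling genes, 1 was higher and 3 were lower: the sodium-calcium exchanger gene Calx (0.20) and the genes CaMKII (-0.40), Ca-alpha1D (-0.31) and Itp-r83A (-0.16), of a kinase and of calcium channels of the cell membrane and the reticulum. The Calx and Itp-r83A calls were lost in 10 and 8 of 14 alternatives.

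Most of the called antimicrobial peptide genes were lower in O1, and Drosomycin was higher. Of 14 genes, 9 were called lower, 1 was called higher and 4 were not called, beside 13.5% lower and 10.3% higher among all genes tested. The median of the 14 was -2.38. The summed level of the list was 620, 523 and 432 CPM in the O1 libraries and 2560, 1013 and 1213 CPM in B3. Metchnikowin (Mtk), an antifungal peptide gene, had 41.7, 39.2 and 37.4 CPM in O1, against 633, 247 and 424 CPM in B3 (-3.46 ± 0.655, adjusted p = 0.00159). Diptericin (Dpt), a target of the Imd pathway, had 9.39, 19.2 and 14.7 CPM in O1, against 404, 82.4 and 103 CPM in B3 (-3.76 ± 1.10, adjusted p = 0.023). The groups of both genes were wholly apart, and B3 library 1 was the highest of all in each. The cecropin genes CecA2 (-3.63), CecB (-3.64), CecA1 (-3.48) and CecC (-1.74) were lower too; they are near-identical copies whose reads may be shared. AttB (-2.68), DptB (-3.24) and Dro (-2.08) complete the 9.

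Drosomycin (Drs), the classical target of the Toll pathway, had 332, 274 and 218 CPM in the O1 libraries and 90.0, 62.9 and 62.1 CPM in B3 (1.94 ± 0.236, adjusted p = 4.83e-05). O1 was thus above B3 in every library for this gene only among the called members of the list. At 6 weeks Drs was lower in O1 (-3.23), and over the day it was not called (-0.20). The 12 members called over the day were all lower, as were the 13 called at 6 weeks. The medians over all members of the list, called or not, were -4.07 and -3.99. The count of lower genes at 1 week depends on single libraries: it was 2 without B3 library 1, 6 without O1 library 1, 4 without O1 library 2 or 3, and 1 with O1 library 1 alone. The list median stayed between -2.78 and -1.77 in those fits. The fat body is the main source of these peptides outside muscle. Its markers summed to 10040, 5820 and 6749 CPM in O1 and to 9870, 10998 and 10970 CPM in B3, so that O1 libraries 2 and 3 were below all B3 libraries in both sums, and O1 library 1 in the peptide sum alone. The fat body markers did not move together at 1 week. Rfabg (-0.84), which has the highest level of them, CG15828 (-0.83) and fon (-0.84) were called lower. All of these were also called lower over the day and at 6 weeks. Npc2b (0.37), Obp44a (1.37), Cyp4e3 (0.50) and Cat (0.67) were called higher. Among the higher ones, Obp44a was called higher over the day and at 6 weeks, Cat over the day alone, and Npc2b and Cyp4e3 in neither. The part of fat body content in the peptide difference was not tested.

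Of 28 genes of immune recognition and signalling, 2 were higher and 7 lower (median -0.12), beside 10.3% and 13.5% of all genes tested. Relish (Rel), the transcription factor of the Imd pathway, had 195, 159 and 145 CPM in O1, against 246, 305 and 267 CPM in B3 (-0.71 ± 0.109, adjusted p = 0.000328). The Toll factor gene dorsal (dl, -0.37) and PGRP-SA (-1.18), which senses Gram-positive bacteria, were lower, and SPE (0.54), the protease that cleaves the Toll ligand, was higher. None of these 4 overlapped between strains. Hemocyte markers, another source of immune RNA, summed to 1313 to 1597 CPM in O1 and 1584 to 2061 CPM in B3, with 3 of 14 called lower. Of 13 C-type lectin genes, 1 was higher and 3 lower. lectin-24A was low in O1 with 0.59, 0.212 and 1.68 CPM, against 39.8, 39.5 and 40.4 CPM in B3 (-5.61 ± 0.48, adjusted p = 3.41e-06). lectin-37Da (-2.59) and lectin-28C (-1.07) were lower as well, and Lectin-galC1 (2.31) was higher.

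Of 20 glutathione transferase genes, which act in detoxification, 3 were higher and 6 lower (median -0.45), beside 10.3% higher and 13.5% lower among all genes tested. Of the 10 GstD genes 0 were higher and 4 lower (median -1.05), and of 9 GstE genes tested 2 were higher and 2 lower (median 0.04). A difference between families was not tested. GstD3 had 12.2, 12.5 and 12.0 CPM in O1, against 121, 184 and 169 CPM in B3, a gap with almost no spread on the O1 side (-3.69 ± 0.148, adjusted p = 2.35e-09). GstD1, an enzyme that conjugates glutathione to toxins, had 902, 919 and 826 CPM in the O1 libraries and 1829, 2501 and 2333 CPM in B3 (-1.33). GstD2 (-1.78) and GstD9 (-1.40) made up the 4, and none of the 4 overlapped. Over the day 8 of the 10 GstD genes were lower and 1 higher.

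Of 81 cytochrome P450 genes, 24 were higher and 12 lower (median 0.21), beside 10.3% and 13.5% of all genes tested. Cyp6a20 had 87.8, 88.6 and 86.6 CPM in O1, against 29.8, 30.4 and 36.2 CPM in B3 (1.45 ± 0.086, adjusted p = 1.57e-07). Cyp6a17 (1.43) and Cyp6a2 (1.42) were higher by like amounts. Cyp304a1 had 0.768, 0.583 and 0.599 CPM in O1, against 10.1, 5.67 and 8.60 CPM in B3 (-3.63). In all 4 genes the strains were clear of each other. Of 17 UDP-glycosyltransferase genes, 2 were higher and 3 lower, near the shares over all genes, with Ugt86Dd at 0.83 and Ugt86Dc at -1.29. Antioxidant enzyme genes split, with 5 of 15 higher and 4 lower. The mitochondrial superoxide dismutase gene Sod2 (0.47), catalase (Cat, 0.67) and Gclm (0.68), of glutathione synthesis, rose, and the peroxidase gene PHGPx fell (-0.72). Cat had 1181, 807 and 826 CPM in the O1 libraries and 545, 594 and 628 CPM in B3.

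Genes of juvenile hormone, a hormone of growth and reproduction that shortens fly lifespan when abundant, included 2 higher and 2 lower of 11. The shares over all genes tested were 10.3% and 13.5%. takeout (to), a target of the clock and of juvenile hormone that encodes a secreted carrier protein, had 337, 148 and 201 CPM in O1, against 39.0, 41.3 and 40.1 CPM in B3 (2.51 ± 0.392, adjusted p = 0.000372). Every O1 library was above B3, with O1 library 1 the highest. The other gene called higher was Jheh1, also of hormone metabolism (0.41, adjusted p = 0.00141). It did not overlap between strains and was called higher over the day (0.27) and at 6 weeks (0.76). The esterase gene Jhe, whose product breaks the hormone down, had 3.01, 1.86 and 2.82 CPM in O1, against 17, 34.6 and 31.8 CPM in B3 (-3.44). Kr-h1, the transcription factor gene that the hormone switches on, had 93.8, 81.7 and 82.6 CPM in the O1 libraries and 162, 241 and 183 CPM in B3 (-1.18). Jhe and Kr-h1 did not overlap and were also lower over the day (-0.84 and -0.87). Neither was called at 6 weeks (Jhe at -0.90, adjusted p = 0.114, and Kr-h1 at -0.56, adjusted p = 0.071), and the change in the Jhe difference between 1 and 6 weeks was itself called (2.54, adjusted p = 0.0179). Kr-h1 was not called with O1 library 1 alone (-1.06, adjusted p = 0.0792).

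Among 19 genes of the insulin, TOR and FOXO pathways, 0 were higher and 10 lower, beside 10.3% higher and 13.5% lower among all genes tested. The median was -0.23, and 18 of 19 differences were negative. melt, which links insulin and TOR signals at the membrane, had 19.0, 19.6 and 18.1 CPM in O1, against 33.7, 31.4 and 35.9 CPM in B3 (-0.83 ± 0.0722, adjusted p = 3.67e-06). S6k, a kinase downstream of TOR, had 112, 106 and 108 CPM in O1, against 152, 172 and 161 CPM in B3 (-0.57). Both were tight within strains and apart between them. The adaptor gene Lnk (-0.36) and the kinase gene Pdk1 (-0.29) were lower, and so were InR (-1.06), ImpL2 (-0.87), Thor (-0.62), Akt1 (-0.25), chico (-0.21) and gig (-0.21). The members include both activators (InR, Akt1, S6k) and inhibitors (ImpL2, Thor, gig) of the pathway. The count of lower genes was 13 without O1 library 1, 4 with it alone, and 6 without B3 library 3 or O1 library 3.

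Of 12 genes for signals that muscle or stressed tissue secretes, 5 were lower and 0 higher (median -0.78). bnl, a fibroblast growth factor that guides tracheal branches, had 24.0, 19.7 and 18.6 CPM in the O1 libraries and 43.7, 44.4 and 42.2 CPM in B3 (-1.06 ± 0.0893, adjusted p = 3.02e-06). The JAK-STAT ligand genes upd3 (-2.85) and upd2 (-3.04) were low in both strains, with upd3 at 0.413 to 0.901 CPM in O1 and 4.52 to 5.63 CPM in B3, and upd2 near the floor in O1 at 0.106 to 0.24 CPM, against 1.14 to 1.61 CPM in B3. myo (-0.48), the myostatin-like ligand of muscle, and the stress gene TotA (-1.66) were also lower. bnl, upd2, upd3 and myo were each without overlap, and all 4 were lower over the day and at 6 weeks.

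The counts of called proteasome and cytosolic ribosomal protein genes moved with O1 library 1. Of 32 proteasome genes, 2 were called lower (Rpn1, -0.25, and Pros54, -0.24) and 0 higher, with a median of -0.11. Their summed level was 3277, 2453 and 2531 CPM in O1, against 2872, 2964 and 3100 CPM in B3. O1 library 1 was above B3 and the other O1 libraries below it. Without it 23 were lower (median -0.23), and with it alone 8 were higher and 0 lower (median 0.14). Over the day 31 of 31 proteasome genes tested were lower in O1 (median -0.34), and at 6 weeks 32 of 32 (-0.92). Of 87 cytosolic ribosomal protein genes, 12 were higher and 1 was lower (median 0.14), with 7 higher without O1 library 1 and 51 with it alone. RpS12 (0.47), RpL24 (0.38) and RpL23 (0.37) rose. RpL24-like, in the list by its name and not shown here to encode a ribosomal protein, fell (-0.65). The count also moved with the scaling, to 32 with median-of-ratios factors and 30 with library totals alone. Of 71 mitochondrial ribosomal protein genes, 22 were higher and 5 lower (median 0.14), among them mRpS16 (0.69) and mRpS9 (-0.43). Without O1 library 1 these counts were 18 and 7, and with it alone 24 and 1. The 6 genes named here from the ribosomal protein lists were called without O1 library 1 and kept their direction with it alone.

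Of 19 autophagy genes, 1 was higher and 4 were lower (Atg4 at -0.39, Atg1 at -0.27), and of 30 chaperone genes 3 were higher and 5 lower. Both chaperone counts are near the shares over all genes tested, which were 10.3% higher and 13.5% lower. The small heat shock gene Hsp26 had 22.6, 42.7 and 25.8 CPM in O1, against 2.61, 5.74 and 3.73 CPM in B3 (2.92 ± 0.434, adjusted p = 0.000249), whereas the related gene Hsp67Bc was lower (-0.85). The Hsp70 genes, near-identical copies, ran from -2.09 to -1.36 and none was called. Of 21 cell cycle genes, 1 was higher and 5 lower. The cyclin genes went opposite ways: CycB had 15.6, 18.4 and 12.9 CPM in the O1 libraries and 0.939, 1.68 and 1.51 CPM in B3 (3.50 ± 0.48, adjusted p = 0.000127), and CycE (-2.63) and CycA (-2.16) were lower. CycB was as far apart over the day (4.02).

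Yolk protein genes, made by the female fat body, were higher in O1 at low levels. Yp3 had 11.9, 2.81 and 4.49 CPM in O1, against 1.61, 1.87 and 1.46 CPM in B3 (1.96). Yp1 (1.87) and Yp2 (1.43) were called too, and all 3 calls were lost in the fit of these 6 libraries alone. Yp1 overlapped between strains, with 1.17 CPM in O1 library 2 and 1.21 CPM in B3 library 1, and was not called without O1 library 1 (1.47, adjusted p = 0.0512). Yp2 was not called with that library alone (1.37, adjusted p = 0.0511). The larval serum protein gene Lsp1beta had 1593, 286 and 443 CPM in O1, against 2070, 3313 and 2451 CPM in B3 (-1.75), and it was not called with O1 library 1 alone (-0.71, adjusted p = 0.258). Of 3 genes that mark male dosage compensation, roX1 averaged 694 CPM in O1 and 680 CPM in B3 (0.03, adjusted p = 0.773), msl-2 averaged 51.2 CPM in both (0.00, adjusted p = 0.993), and neither was called. roX2 was called lower in O1, with 9.68, 11.5 and 9.11 CPM there, against 14.7, 15.5 and 15.2 CPM in B3 (-0.58, adjusted p = 0.00156), and the strains did not overlap.

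The 30 genes with the largest called differences, 15 in each direction, included several of unknown role. CG14893 had 9.45, 18.7 and 18.8 CPM in the O1 libraries and 0.536, 0.774 and 0.665 CPM in B3 (4.56 ± 0.361, adjusted p = 1.8e-06). CG9192 had 51.3, 55.2 and 54.0 CPM in O1, against 3.02, 3.03 and 3.24 CPM in B3 (4.11 ± 0.14, adjusted p = 7.68e-10). The 2 genes part in the day course: CG9192 again differed by 4.0, while CG14893 was at most 2.03 CPM in O1 and 2.80 CPM in B3 and was not called (-0.32). Akh, the adipokinetic hormone that mobilises energy stores and is made in the corpora cardiaca, had 68.7, 3.71 and 5.99 CPM in O1, against 3.49, 1.68 and 0.177 CPM in B3 (3.92). It rests on O1 library 1, without which it was not called (1.47, adjusted p = 0.137). The same holds for CG34324, with 4820, 1074 and 1203 CPM in the O1 libraries and 346, 718 and 523 CPM in B3 (2.16), and 1.10 (adjusted p = 0.0644) without that library. In the day course both genes were high in all libraries, Akh at 69.2 to 85.5 CPM in O1 and 52.8 to 70.9 CPM in B3, and CG34324 at 7600 to 13628 CPM in O1 and 6357 to 8417 CPM in B3.

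Of the other rises, CG15263 (3.66), CG3253 (2.84) and CheA86a (2.07), of a chemosensory protein family, were called over the day as well, and CG9458 (2.43), CG34040 (2.43) and Lectin-galC1 (2.31) were not. O1 library 1 was the highest of the 6 in CG9458, Lectin-galC1 and Cyp4aa1 (2.27). Without it their differences were 1.66, 1.71 and 1.43, and each was still called. Lysozyme genes ran in both directions. LysP had 618, 444 and 522 CPM in O1, against 106, 89 and 83.7 CPM in B3 (2.51). LysC had 0.472, 0.53 and 0.359 CPM in O1, against 46.3, 130 and 65.7 CPM in B3 (-7.45), and LysX had 0.118, 11.1 and 9.11 CPM in the O1 libraries and 96.3, 68.5 and 65.2 CPM in B3 (-3.49). These genes belong to one family, and reads may be shared between its closest copies. LysP and LysX also stand in the gut marker list.

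Among the falls, CR43459 had 25.4, 24.4 and 25.1 CPM in O1, against 1590, 1362 and 1457 CPM in B3 (-5.88 ± 0.213, adjusted p = 8.6e-10). RefSeq lists it as a long noncoding RNA that is the primary transcript of the microRNAs miR-277 and miR-34, the second of which is known as a regulator of ageing in the fly brain. Its level barely varied within a strain. It was lower over the day, at 19.4 to 27.2 CPM in O1 and 904 to 1307 CPM in B3 (-5.54), and at 6 weeks (-4.45). In O3 at 1 week it had 23.3, 16.1 and 25.3 CPM. CG32368 (-4.79), listed by RefSeq as a noncoding RNA, CG14499 (-4.37), dro2 (-3.99), a gene of the Drosomycin family, and CG15369 (-3.88) followed. CG42825 (-3.57), CG5767 (-3.51), the alkaline phosphatase gene CG10592 (-3.50) and CG7342 (-3.48) complete the list. In CG14499, CG5767, LysX and CG10592, O1 library 1 was the lowest of the 6. Without it their differences were -3.80, -2.93, -2.92 and -3.05, and each was still called. CG5767 (-3.49, adjusted p = 0.0689) and LysX (-3.47, adjusted p = 0.0661) lost the call in the fit of these 6 libraries alone. Of the 15 rises 11 were called higher over the day and 14 at 6 weeks, and of the 15 falls 14 and 12 were called lower.

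**Figure D4:**
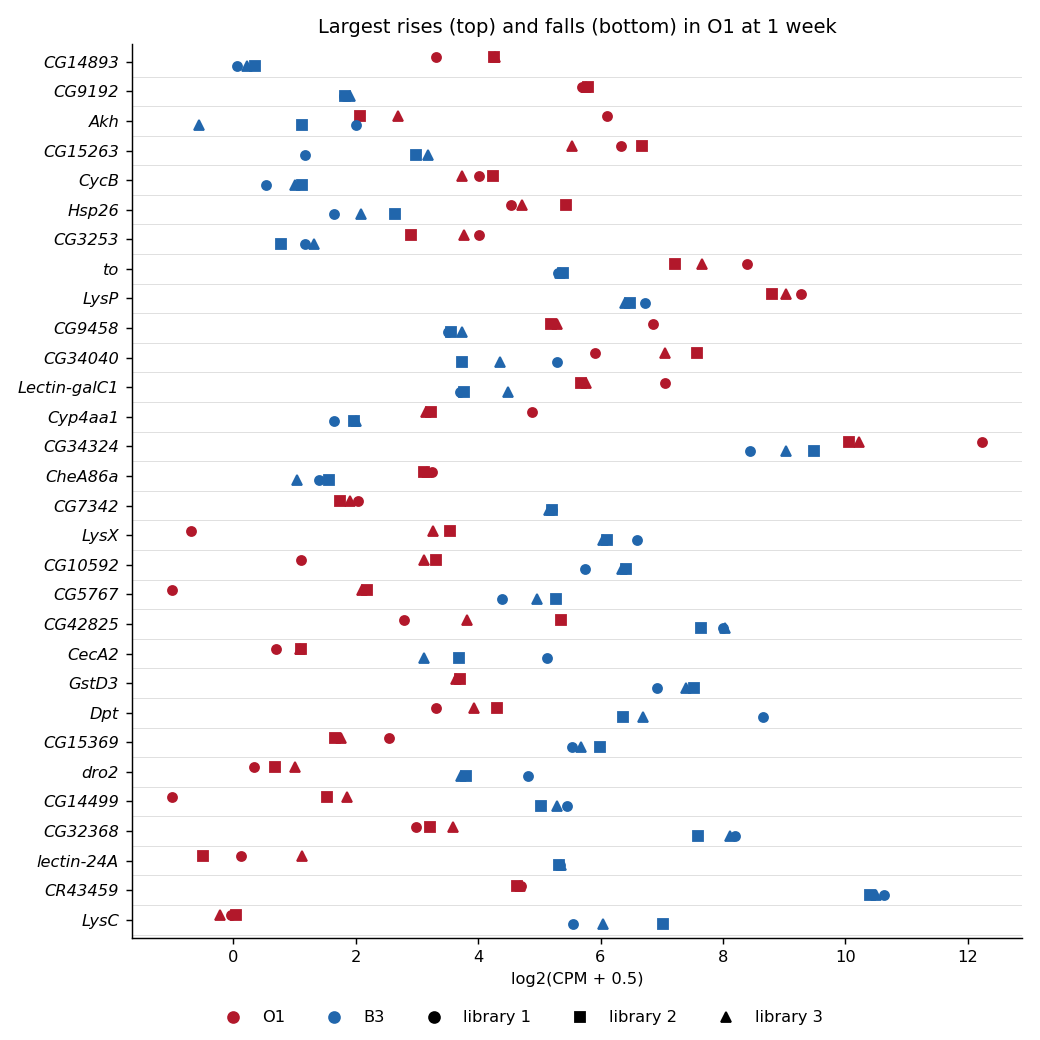
Level, as log2(CPM + 0.5), of the 15 largest rises (top) and the 15 largest falls (bottom) in each O1 (red) and B3 (blue) library at 1 week, with the shape giving the library number. The strains do not overlap in any of the 30, by the rule that chose them, and O1 library 1 (circle) lies away from the other O1 libraries in Akh, CG34324, LysX, CG14499 and CG5767.

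In 5 genes one strain was at or under 3 counts in every library while the other had at least 1 CPM in every library. mthl12, a receptor gene of the methuselah-like family, had 30.5, 17.8 and 21 CPM in O1 and at most 1 count in any B3 library, at least 115-fold higher in O1 against a floor of 3 counts in one library (0.201 CPM). It was at 17.2 to 26.5 CPM in O1 at 6 weeks and 35.2 to 39.9 CPM in O3 at 1 week. In the day course, however, it was at most 0.108 CPM in O1 and 0.0622 CPM in B3. CG12027, named in RefSeq as like a coupling factor of ATP synthase, was at least 14.8-fold higher in O1, with 1.83, 3.87 and 3.24 CPM there. CG15239, CG42586 and CG13215 were at least 11.2-fold, 6.48-fold and 6.41-fold lower in O1, where each had 0 to 3 counts. Of the other methuselah-like genes, mthl8 (-1.16) and mthl1 (-0.28) were lower.

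Most 1-week calls recurred in the day-course libraries, which share none with the 1-week comparison. In that course 6903 of 12295 genes (56.1%) were called between the strains. Of the 1254 genes called higher at 1 week and tested in both, 1007 (80.3%) were called higher over the day, which is 28.7% of the genes called higher there, and 33 were called lower. Of 1658 called lower, 1343 (81.0%) were called lower over the day, 39.6% of those called lower there, and 30 were higher. At 6 weeks, where 5523 genes (44.4%) were called, 833 of 1276 (65.3%) and 1251 of 1680 (74.5%) were called the same way, and 69 and 37 the opposite way. Across genes, which are not independent, the differences had a Pearson r of 0.411 between the 1-week and day-course libraries over 11615 genes. The difference between the strains itself changed between 1 and 6 weeks in 1776 of 12445 genes (14.3%), 745 higher and 1031 lower at 6 weeks. Scaling by library totals alone turned that split to 59.4% higher.

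**Figure D5:**
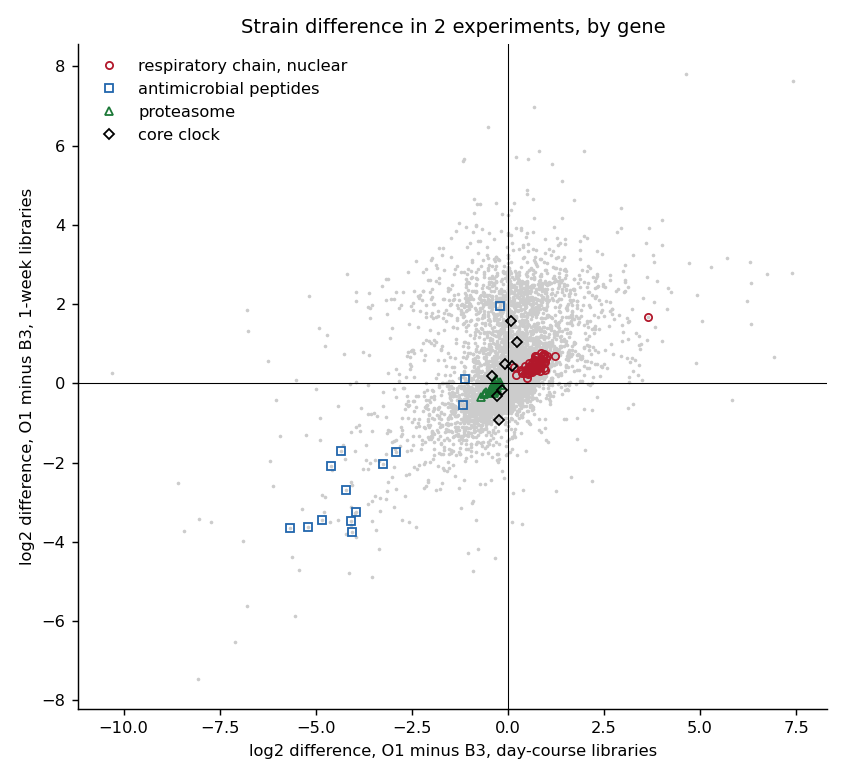
Log2 difference, O1 minus B3, of each gene in the 1-week libraries (vertical axis) against the day-course libraries (horizontal axis), with 4 gene lists marked. Respiratory chain genes (circles) lie to the upper right and most antimicrobial peptide genes (squares) to the lower left. Drs is high on the vertical axis alone, and Def is near 0 on that axis (0.10). tim, the topmost clock gene, is near 0 on the horizontal axis. The 5 genes at the floor in 1 strain are left out.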

How the data were processed

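Each library was deposited by the authors as a table of raw, unnormalized counts of reads per gene. The submitters' processing notes name the build dm3 and the tools BWA, STAR and HTSeq, without versions or roles. Whether counting used strand is not given in the sources used here, and reads of antisense or overlapping genes may be shared. Rows that name no gene, holding 20.8 to 27.9% of reads as no feature in the 6 libraries, were dropped. In R 4.3.3 with edgeR 4.0.16, the 18 libraries of the age experiment were fitted in 1 model with a mean per group, and the 31 of the strain day course in another. Steps were filterByExpr by group, TMM scaling, quasi-likelihood F-tests and Benjamini-Hochberg adjustment over all genes tested. Of 15682 genes, 12445 and 12295 were tested. All adjusted p-values come from these tests, and a gene was called under 0.05. CPM use effective library sizes; levels are not set across the 2 experiments, which were scaled separately. The floor of 3 counts is 0.13 to 0.20 CPM in the 6 libraries and covers counting error only. The code was tested on simulated counts.

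Members and lists were chosen with earlier results of these data known. Named genes are the 8 core clock genes, the 15 largest called rises and falls that had no overlap and averaged at least 2 on the log2 CPM scale, up to 4 called members of each list by p, and genes at the floor in 1 strain. Others named complete a count or a marker list and were chosen after their values were seen. Of 132 such genes, 128 matched a RefSeq name (Release 6), 21 by synonym. Alternatives were other scalings, filters and samples, DESeq2 1.42.0, a replicate block and leaving out libraries. One without O1 libraries 2 and 3 was added after seeing the data.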

Additional observations from a re-analysis of the deposited data

Results flagged for a closer look

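The strain difference itself changed between 1 and 6 weeks in 10 of the 38 core clock genes and largest rises and falls. This was read by the interaction contrast of edgeR's quasi-likelihood test, which called 14.3% of all genes tested. The rises and falls were chosen for large 1-week differences, which the contrast subtracts, so smaller differences at 6 weeks are favoured by that choice. The count can therefore not be set against the share over all genes. Values are the 6-week minus the 1-week log2 difference, O1 minus B3. cry moved by 0.72 (adjusted p = 0.00148), with 0.55 at 6 weeks and -0.17 at 1 week. Among the rises, CG14893 moved by -1.64 and CG9192 by -1.82, so that both were nearer to B3 at 6 weeks, and LysP moved by 0.76 and CheA86a by 1.13. Among the falls, the values were 1.43 for CR43459, 2.15 for CG32368, 1.92 for GstD3, 3.08 for CG10592 and 2.03 for CG7342. In each of these 5 the difference at 6 weeks remained negative and was smaller, from -4.45 in CR43459 to -0.42 in CG10592, which was not called at 6 weeks.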

How the results depend on the processing

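At 1 week, 14 alternatives left the direction of every named call in place. Of 130 named genes called, 87 were called in every alternative, 43 lost the call in at least 1, and 0 reversed. The count of 2956 genes fell to 1887 (816 higher, 1071 lower) when the 6 libraries were fitted alone, with fewer samples to estimate the spread. Leaving out 1 library gave 2067 to 3117 genes, 848 to 1184 higher and 1219 to 1968 lower, the lowest without B3 library 3. Other settings gave 2495 without a filter, 3003 with 1 CPM in 3 libraries, 3109 with median-of-ratios factors, 3225 with totals alone and 3294 with DESeq2. The replicate block gave 2838 genes, 1195 higher and 1643 lower. Same-numbered libraries deviated with correlations of -0.328, 0.183 and -0.503, so the numbers were not taken as pairs. Counts in the other comparisons stayed within 1.5 times under every alternative, leave-one-out included. Depth was 15.5 to 23.7 M counts, and genes near 0.13 to 0.20 CPM could not be compared. Among the lists, the proteasome, cytosolic ribosomal protein and antimicrobial peptide counts moved most; the cause was not tested.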

Other observations

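Of 154 genes that differed at least 4-fold at 1 week and were tested in the day course, 124 were called in the same direction there and 30 were not. Chosen after their values were seen, 2 of the 30 show libraries rather than strains apart. CG14075 had 57.2, 2.12 and 4.31 CPM in O1, against 3.15, 1.61 and 0.0887 CPM in B3 at 1 week, and in the day course 60.1 to 82.9 CPM in O1 and 58.7 to 78.6 CPM in B3. Its level in O1 library 1 was near that of the day-course libraries, and so was that of Akh (68.7 CPM in O1 library 1, 69.2 to 85.5 CPM in O1 over the day). The 2 experiments were scaled separately. CR43334 showed a strain difference instead, with 2.24, 2.01 and 2.22 CPM in the O1 libraries and 23.4, 9.35 and 11.8 CPM in B3 at 1 week (-2.78), against 2.29 to 4.36 CPM in O1 and 1.91 to 3.52 CPM in B3 over the day. The ion channel gene ppk28, which encodes a water-sensing channel of taste neurons, had 9.92, 5.41 and 5.51 CPM in O1, against 1.01, 0.774 and 1.11 CPM in B3 (2.84), and over the day 1.36 to 1.88 CPM in O1 and 0.994 to 1.76 CPM in B3.

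Cyp4g1, a P450 gene of the oenocytes, cells under the cuticle that make its hydrocarbons, had 22173, 7134 and 6905 CPM in O1, against 4054, 5168 and 5370 CPM in B3 (1.31, adjusted p = 0.0203). O1 library 1 was highest, and the other O1 libraries were also above B3; the difference was not called over the day (-0.31, adjusted p = 0.476) or at 6 weeks (0.72, adjusted p = 0.126).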
